A study of Rattus norvegicus with 18 samples.

Results

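Whole brains of 6-week-old rats of the stroke-prone spontaneously hypertensive strain (SHRSP) were compared with those of the spontaneously hypertensive strain (SHR) of the same age. The members were the 3 arrays labelled SHRSP at 6 weeks and the 3 arrays labelled SHR at 6 weeks, chosen by their titles, out of 18 arrays in all. The other 12 arrays were 3 each of the normotensive Wistar-Kyoto strain (WKY) at 3 and at 6 weeks and of SHR and SHRSP at 3 weeks. All rats were untreated, per the labels, and total RNA of the brain was labelled with 1 dye (Cy3) from an oligo-dT primer. The labels call the arrays of a group biological replicates, and the sex of the animals and whether each array held 1 animal are not given in the sources used here. The strains are inbred lines, so a strain stands for 1 genotype rather than for hypertension in general.

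SHR was bred from Wistar-Kyoto rats for high blood pressure, and SHRSP was bred from SHR for early stroke. Both strains have near-normal pressure as weanlings and become hypertensive as young adults, so the ages sampled lie before and during that rise. Immediate early genes such as Fos, Arc and Egr2 are transcribed within minutes of neuronal activity or stress and need no new protein for it. Many other genes that separate inbred strains differ because an allele changes the transcript or the stretch that a probe binds, and such differences can persist from one age to the next.

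Values are log2 of the processed spot signal minus the array's 75th percentile, so 0 is a bright gene, a difference of 1 is 2-fold, and levels are compared between arrays but not between genes. A gene is called higher or lower where the adjusted p of limma (Benjamini-Hochberg, two-sided, over all 21181 genes tested) was under 0.05. Errors are standard errors (SE) of that fit, with n = 3 arrays a group. Changes are SHRSP minus SHR throughout.

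Each group filled a slide of its own, scanned on a different day, so that for this comparison slide, scan day and strain cannot be told apart. On the 6 arrays 81.8% to 87.5% of spots were well above background, as the scanner software marks it, and no spot was saturated. Replicate arrays correlated across genes at r = 0.9957 to 0.9972 and arrays of different groups at 0.9892 to 0.9905 (genes are not independent replicates). All 19 measured neuron markers and all 15 astrocyte markers were well above background on all 6 arrays. Many of the large differences at 6 weeks had the opposite sign at 3 weeks, as described next, so each group is named below by the label its arrays carry.

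Probes of 5 genes called at both ages with opposite signs are shown first, because the levels they read set these groups apart on every array and reverse between the ages. Each is the 60-base probe of the array, 5′ to 3′, and coordinates are those of the files in the rn4 build.
Vegfb: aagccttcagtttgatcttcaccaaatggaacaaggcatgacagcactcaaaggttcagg
Agtrap: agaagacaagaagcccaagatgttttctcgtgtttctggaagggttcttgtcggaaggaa
Hba-a3: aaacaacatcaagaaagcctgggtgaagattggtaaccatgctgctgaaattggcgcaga
Ephx2: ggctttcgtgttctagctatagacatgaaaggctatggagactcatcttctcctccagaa
Defb17: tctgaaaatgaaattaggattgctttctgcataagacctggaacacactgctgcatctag
All 5 probes lie on the minus strand. They map to chr1:209657830-209657889 (Vegfb), chr5:165154364-165154423 (Agtrap), chr10:15559461-15559520 (Hba-a3), chr15:45535737-45538220 (Ephx2) and chr9:17117191-17117250 (Defb17). The Ephx2 interval is longer than its probe, so that probe spans a gap in the genome. Whether the probes lie in coding or untranslated sequence was not analysed here.

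Vegfb encodes a vascular endothelial growth factor that acts on heart and fat tissue vessels and on neurons. Its levels were 0.29, 0.28 and 0.22 on the arrays labelled SHR and -8.99, -8.82 and -9.24 on those labelled SHRSP, where none was above background. It was at least 196-fold lower in the arrays labelled SHRSP (adjusted p = 4.61e-15), against a floor that takes, on each dim array, the lowest signal marked well above background. At 3 weeks the order was reversed: the mean was -9.14 in the arrays labelled SHR and 0.43 in those labelled SHRSP. Both WKY groups lay with the bright group, at 0.40 and 0.37.

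Agtrap encodes a protein that draws the main angiotensin receptor into the cell. It read -4.86, -4.79 and -4.73 in the arrays labelled SHR and -0.26, -0.32 and -0.15 in those labelled SHRSP. The groups were far apart, and the change was 4.55 ± 0.05 (adjusted p = 5.62e-16). At 3 weeks the arrays labelled SHRSP were the dim group, with means of -0.34 for SHR and -4.40 for SHRSP.

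Ephx2 encodes soluble epoxide hydrolase, an enzyme that removes vessel-relaxing lipid epoxides. It read -7.66, -6.91 and -7.21 against -3.46, -3.55 and -3.83. The groups did not overlap (adjusted p = 1.19e-08), and the dim group was above background on 2 of 3 arrays, so no size is given. Hba-a3, an alpha globin gene, read -7.75, -7.83 and -7.17 against -1.22, -0.79 and -1.47, also without overlap (adjusted p = 3.86e-09). Only 1 of its 3 dim arrays was above background, so the size of its rise is likewise not given. Hba-a3 was the 1 blood marker called of 11 measured, where 42.8% of all genes were called.

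Defb17, a beta-defensin gene, went the other way and read -1.87, -1.93 and -2.06 in the arrays labelled SHR. In those labelled SHRSP it was not above background on any array, at -7.67, -9.44 and -7.61, and was at least 42.0-fold lower (adjusted p = 1.20e-06). Each of these 5 genes had the reverse order at 3 weeks: the means of the arrays labelled SHR and SHRSP were -3.42 and -7.34 for Ephx2, -0.81 and -8.65 for Hba-a3, and -8.92 and -2.30 for Defb17. The 6-week and 3-week differences share no array.

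**Figure D1:**
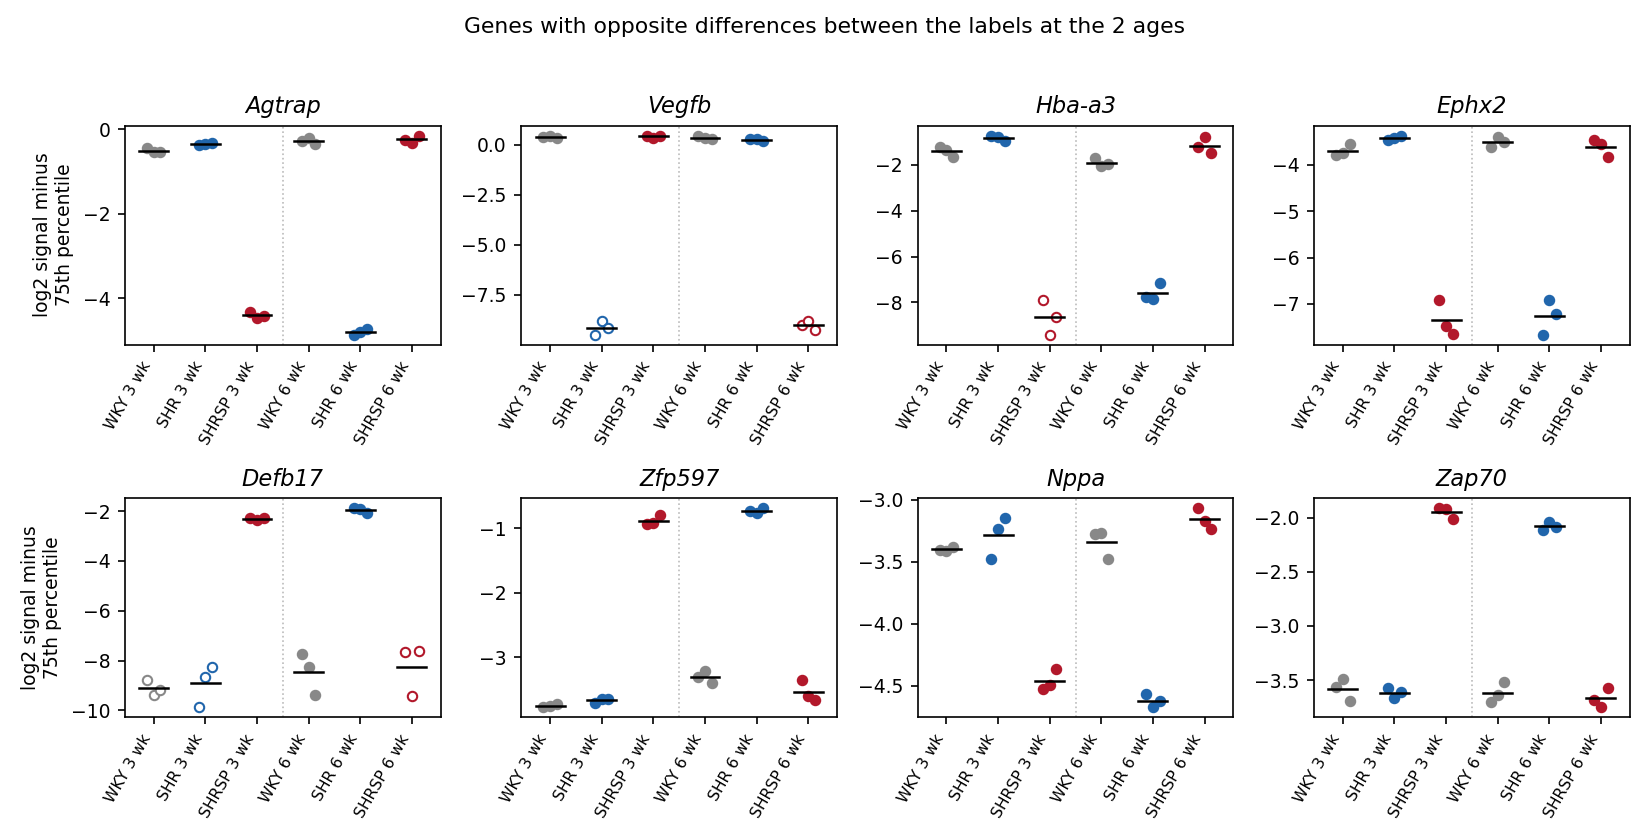
Log2 signal minus the array's 75th percentile (vertical axis) of 8 genes on the 3 arrays of each of 6 groups; points are arrays, bars are group means, and open points mark groups with no array above background. In each panel the group that stands away from WKY at 3 weeks carries the other label at 6 weeks, as for Agtrap (-4.40 in SHRSP at 3 weeks, -4.79 in SHR at 6 weeks).

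At 3 weeks 914 genes were called between these labels (4.32% of 21181), 2.29% higher and 2.03% lower, and 595 of them were called at both ages. Of the 595, 493 (82.9%) had opposite signs, 235 of them higher and 258 lower at 6 weeks, and 102 had the same sign, 47 higher and 55 lower. Of the 75 genes (0.354%) called at least 2-fold apart at 3 weeks, 66 were called at 6 weeks and 61 of those had the opposite sign. Across those 75 genes the changes at the ages correlated at r = -0.90, against 0.04 over all genes. These correlations are descriptions across genes, which are not independent replicates. At 3 weeks replicates 2 and 3 labelled SHR shared a slide with replicates 1 and 2 labelled SHRSP, while at 6 weeks each group had its own. Slide and age therefore cannot be told apart where the ages are compared. If the SHRSP and SHR labels of 1 age had been exchanged, every sign given at that age would turn; whether they were, and at which age, was not tested. The difference between ages would then be the sum of both changes, with its sign turned if the exchange was at 6 weeks. With either sign it was called in 6541 genes (30.9%) against 3839 (18.1%) as labelled, 1980 of them in both. This alternative was chosen after seeing the data.

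**Figure D2:**
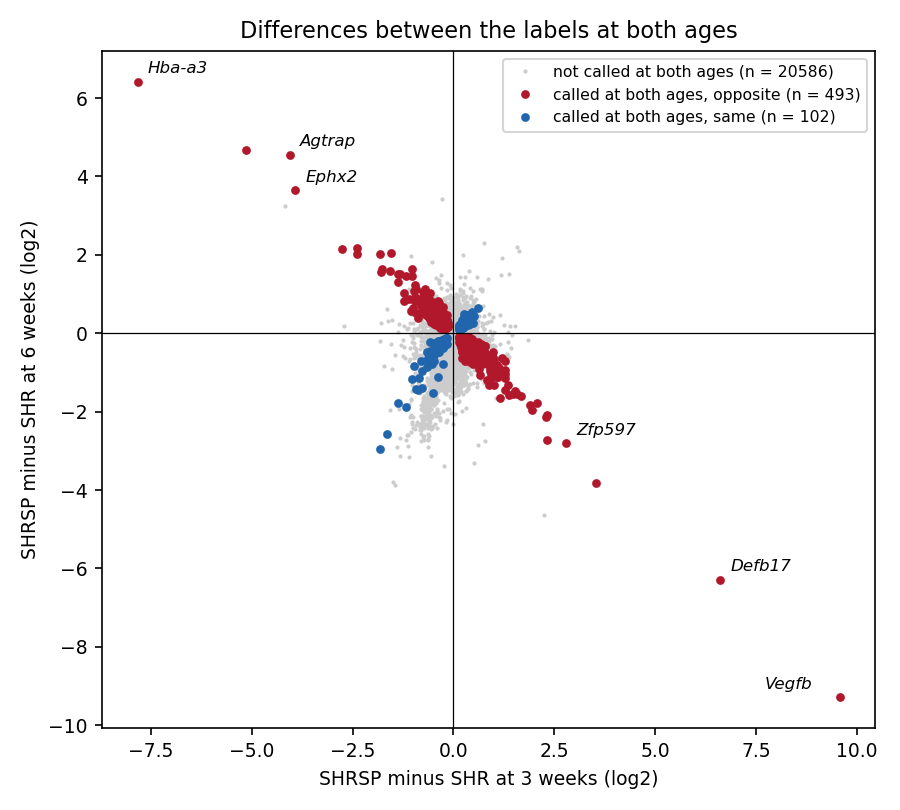
Change from the SHR to the SHRSP label at 3 weeks (horizontal, log2) and at 6 weeks (vertical, log2), each point a gene. The 493 genes called at both ages with opposite signs lie along the falling diagonal from Hba-a3 to Vegfb, and the 102 with the same sign lie in the other quadrants.

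In total 9062 of 21181 genes (42.8%) were called at 6 weeks, 4539 higher (21.4%) and 4523 lower (21.4%) in the arrays labelled SHRSP. Most changes were small: 75.6% of the called genes differed by less than 0.5 on the log2 scale, and the median size was 0.30. With slide as a random block the count was 4752 (22.4%), 2186 higher (10.3%) and 2566 lower (12.1%). After scaling to the median of each array 62.4% of the calls were higher, against 50.1% here, so the split between higher and lower depends on the scaling. The groups did not overlap in 11339 genes (53.5%), whether called or not. Of all genes tested, 605 (2.86%) were called and at least 2-fold apart, and these were uneven in direction, with 38 higher (0.179%) and 567 lower (2.68%). Of the 567, 84 were above background on all 3 arrays labelled SHR and on 0 labelled SHRSP. The reverse held for 2 of the 38, and the fitted sizes of such genes are not measured folds. With only probes above background on all 18 arrays kept, 435 genes were 2-fold apart, 25 higher and 410 lower.

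Most of the 567 strongly lowered genes also differed between 1 array and 2 others of 1 group that lay on different slides. The arrays labelled SHR at 3 weeks were spread over 2 slides, replicate 1 on the first and replicates 2 and 3 on the second, which gives a difference with no change of label or age. It sets 1 array against 2, so slide and sample cannot be told apart in it. Of the 567, 406 (71.6%) were higher by at least 0.5 on the first of those slides, against 6.94% of all genes and 1 of the 38 raised genes. Their median levels were -3.51 in WKY at 3 weeks, which lay on that first slide, -3.17 in SHR at 6 weeks and -4.83 in SHRSP at 6 weeks. In WKY at 6 weeks the median was -4.71, and 497 of the 567 were nearer to the arrays labelled SHRSP there. Only 27.0% of the 567 had an established gene symbol, against 68.1% of all genes. Without the genes that differed between those slides by 0.5 in either direction, 7897 of 19220 were called and 181 were at least 2-fold apart, 35 higher and 146 lower; this limit was chosen after the data were seen.

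**Figure D3:**
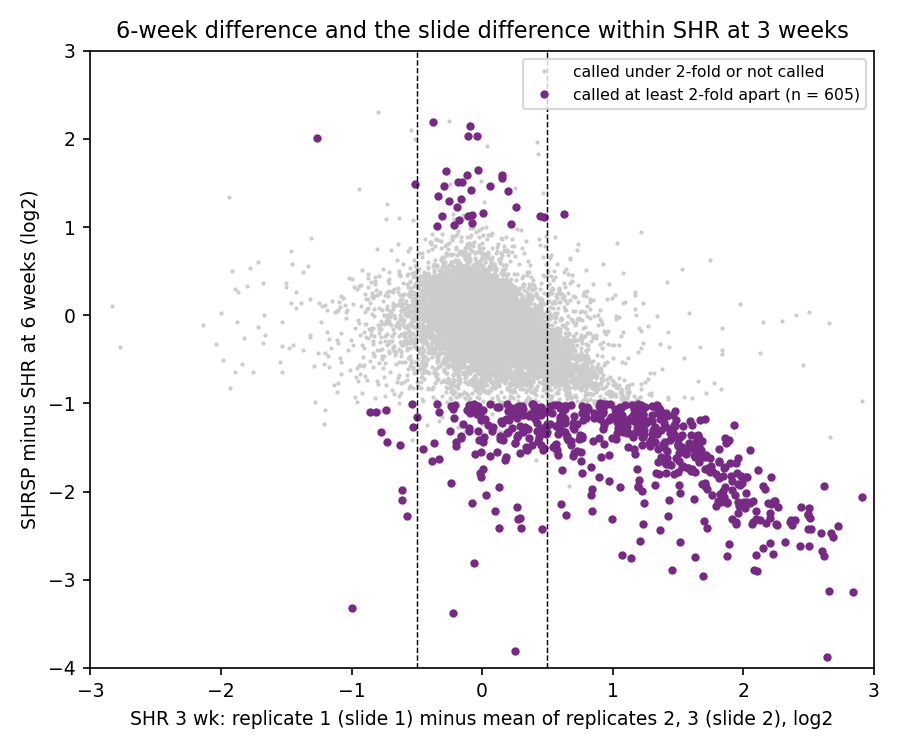
Change at 6 weeks (vertical, log2) against the difference between slides within the arrays labelled SHR at 3 weeks (horizontal, log2), each point a gene; dashed lines mark 0.5 in either direction, and 18 genes lie outside the axes. Genes called at least 2-fold apart at 6 weeks lie mostly below 0 and to the right of the dashed line, 406 of the 567 that were lower.

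The named genes of this kind included an odorant receptor (Or8b8), the type 1b angiotensin receptor (Agtr1b) and the CD30 ligand (Tnfsf8). Their probes are shown because they hold the same run of 8 bases, GTCTTCCT, in capitals, which was noticed after the values were seen.
Or8b8: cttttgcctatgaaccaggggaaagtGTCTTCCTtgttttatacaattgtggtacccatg
Agtr1b: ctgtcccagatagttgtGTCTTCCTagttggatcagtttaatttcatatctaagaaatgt
Tnfsf8: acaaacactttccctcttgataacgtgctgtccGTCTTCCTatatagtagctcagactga
The run stood in the probes of 36 of all 21181 genes (0.17%), and 16 of the 36 were at least 2-fold lower at 6 weeks, where 2.68% of all genes were. It stood in 15 of the 406 lowered genes that also differed between slides (3.69%). Its reverse complement stood in 52 probes, of which 1 was at least 2-fold lower. The 36 probes had a median change of -0.86, against 0.01 for all genes. The run was noticed in lowered probes, and the probes shown are among those counted. These counts and this median are therefore no test of the run, and its reverse complement was not picked in that way. Or8b8 lies at chr8:39287266-39287325 on the plus strand and Agtr1b at chr2:105503483-105503542 on the minus strand.

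Agtr1b read -2.08, -2.08 and -2.13 in the arrays labelled SHR and -4.59, -4.20 and -5.21 in those labelled SHRSP, a change of -2.57 ± 0.43 (adjusted p = 0.000541). Its level was -2.28 in WKY at 3 weeks and -4.67 in WKY at 6 weeks, and it was higher by 1.52 on the first slide within SHR at 3 weeks. Or8b8 changed by -2.74 ± 0.44 (adjusted p = 0.000387) with a slide difference of 1.63, and Tnfsf8 by -2.36 ± 0.36 (adjusted p = 0.000313) with 1.23. These slide differences rest on 1 array against 2, and their part in the change at 6 weeks was not tested.

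Where a gene had a second probe, the pair at times disagreed. The probes of Zfp14, a zinc finger gene, Numa1, which anchors the mitotic spindle, and Flywch1, a FLYWCH zinc finger gene, are shown for that reason, the brighter first.
Zfp14 probe 1: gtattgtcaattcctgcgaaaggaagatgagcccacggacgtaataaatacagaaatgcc
Zfp14 probe 2: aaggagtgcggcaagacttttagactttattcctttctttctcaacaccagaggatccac
Numa1 probe 1: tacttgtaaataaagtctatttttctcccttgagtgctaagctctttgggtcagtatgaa
Numa1 probe 2: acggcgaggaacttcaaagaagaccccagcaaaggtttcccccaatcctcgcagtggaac
Flywch1 probe 1: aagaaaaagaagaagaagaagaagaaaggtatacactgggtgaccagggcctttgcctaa
Flywch1 probe 2: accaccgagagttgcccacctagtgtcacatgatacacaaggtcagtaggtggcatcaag
The first Zfp14 probe read -2.12, -2.17 and -2.17 against -1.02, -1.01 and -1.01, a rise of 1.14 ± 0.04 (adjusted p = 1.11e-10). The second, in the same gene at chr1:85065531-85065590, read -2.66, -2.76 and -2.69 against -3.82, -3.85 and -3.91, a change of -1.16 ± 0.06 (adjusted p = 1.08e-08). The direction of Zfp14 therefore depends on the probe, and the mean of both probes was -0.01. The probes of Numa1 changed by -1.44 ± 0.30 and 0.18 ± 0.06. Those of Flywch1 changed by -1.38 ± 0.16 and -0.02 ± 0.04, and with the normexp background correction Flywch1 was not called (-0.04, adjusted p = 0.438). The first Numa1 probe was higher by 1.40 on the first slide within SHR at 3 weeks.

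The genes raised most, among those above background on all 6 arrays, were largely of the kind that reversed between ages. Cort, the somatostatin relative cortistatin of cortical interneurons, read -1.35, -1.42 and -1.29 against 0.30, 0.27 and 0.32, a rise of 1.65 ± 0.05 (adjusted p = 8.97e-11). Nppa, the atrial natriuretic peptide, which lowers blood pressure through the kidney and vessels, read -4.57, -4.67 and -4.62 against -3.07, -3.17 and -3.24 and rose by 1.46 ± 0.08 (adjusted p = 2.60e-08). No value of one group reached into the other for either gene. At 3 weeks Cort changed by -1.02 and Nppa by -1.17.

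Tnfaip6, which binds hyaluronan in inflamed tissue, rose by 1.56 ± 0.06, Lpar6, a lysophosphatidic acid receptor, by 1.31 ± 0.06, and Haghl, a relative of the glyoxalase hydroxyacylglutathione hydrolase, by 2.03 ± 0.07. Myoc, the myocilin gene of the eye's outflow tract, rose by 2.04 ± 0.09 from levels near -5.94. Sgca, a sarcoglycan of muscle, rose by 1.23 ± 0.10 and the galectin Lgals7 by 1.51 ± 0.10. All 6 had adjusted p of at most 1.07e-06 and at 3 weeks all 6 were lower under the SHRSP label. WKY at 6 weeks lay near the arrays labelled SHRSP for Haghl (-2.06) and Lpar6 (-2.09) and near those labelled SHR for Myoc (-5.46) and Tnfaip6 (-4.84).

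The brighter probe of the leukocyte receptor gene Pira2 was under background in all arrays of the SHR label, and with it the SHRSP label read at least 2.65-fold higher (adjusted p = 0.000379). Of the 38 genes raised at least 2-fold, 25 were called at 3 weeks and all 25 had the opposite sign there.

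Among the lowered genes above background on all 6 arrays, the zinc finger gene Zfp597 read -0.74, -0.76 and -0.69 against -3.36, -3.60 and -3.66, a change of -2.81 ± 0.07 (adjusted p = 4.73e-12). Zap70, a kinase of the T cell receptor, read -2.11, -2.04 and -2.08 against -3.69, -3.75 and -3.58 and changed by -1.59 ± 0.06 (adjusted p = 8.11e-10). The groups were widely separated in both. Rgs11, which speeds the shut-off of G protein signals, changed by -2.09 ± 0.15, with a slide difference of -0.61 within SHR at 3 weeks, and Zfp296 by -2.13 ± 0.08. Trappc6a, part of a vesicle tethering complex, changed by -1.14 ± 0.04, and its second probe by -0.88 ± 0.05. All 5 were higher in the arrays labelled SHRSP at 3 weeks, by 1.27 to 2.78. Of 11 measured lymphocyte markers 3 were lower (Zap70, Cd3d and Cd8b) and 0 were higher. Over all genes 21.4% were called each way, and nothing is read from these counts.

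Most immediate early genes were lower. Of 24 measured members, 19 were lower in the arrays labelled SHRSP, 1 (Ier3) was higher and 4 (Jun, Egr3, Atf3 and Homer1) were not called, with a median change of -0.53 against 0.01 over all genes. Over all genes 21.4% were lower. With slide as a random block 14 were lower, against 12.1% of all genes. The mean level of the list at 6 weeks was -1.27 to -1.17 in the arrays labelled SHR, -1.99 to -1.84 in those labelled SHRSP and -1.15 to -1.02 in WKY. Among the groups of 6 weeks the arrays labelled SHRSP were therefore the group apart. At 3 weeks the list lay at -1.765 to -1.658 in SHR, -1.867 to -1.808 in SHRSP and -1.555 to -1.464 in WKY. The range of SHRSP at 3 weeks overlapped that of SHRSP at 6 weeks. The difference between the ages was called downward in 12 of the 24 and upward in 0. Over all genes it was called in 3839 (18.1%), 9.7% upward and 8.43% downward. The list was drawn up with earlier results of these data known.

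The probes of Fos and Arc are shown as the clearest cases.
Fos: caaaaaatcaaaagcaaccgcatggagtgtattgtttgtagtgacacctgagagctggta
Arc: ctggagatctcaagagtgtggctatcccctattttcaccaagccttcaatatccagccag
They lie at chr6:109561941-109562000 on the plus strand and chr7:112772025-112772084 on the minus strand of rn4.

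Fos, which forms the AP-1 transcription factor with Jun, read -1.776, -1.998 and -1.979 in the arrays labelled SHR and -4.13, -3.95 and -4.19 in those labelled SHRSP. The change was -2.17 ± 0.09 (adjusted p = 1.91e-09, and 1.82e-07 with slide as a random block), and WKY at 6 weeks lay at -1.54. Arc, which acts at synapses to remove AMPA receptors, read 2.71, 2.56 and 2.32 against 0.17, 0.28 and 0.47 and changed by -2.22 ± 0.13 (adjusted p = 6.30e-08). WKY at 6 weeks lay at 2.43. In both genes the SHR and SHRSP labels did not overlap and WKY sat with SHR.

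Egr2, a zinc finger transcription factor, read -1.68, -1.74 and -1.73 against -4.36, -3.98 and -4.05, a change of -2.42 ± 0.16 (adjusted p = 2.24e-07). Nr4a1, an orphan nuclear receptor, read 1.53, 1.43 and 1.42 against -0.15, -0.09 and 0.07 and changed by -1.51 ± 0.09 (adjusted p = 8.91e-08). Egr1 changed by -1.06 ± 0.08, and its second probe by -0.94 ± 0.08. At 3 weeks the changes were smaller: -0.34 for Fos, -0.33 for Arc, -0.41 for Egr2, 0.04 for Egr1, none of them called, and -0.50 for Nr4a1 (adjusted p = 0.00472). The difference between ages was called for all 5 genes, with adjusted p of 2.93e-07 for Fos, 7.28e-06 for Arc, 3.46e-05 for Egr2, 0.000113 for Nr4a1 and 1.54e-05 for Egr1.

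Sik1, a kinase that brakes cAMP-driven transcription, changed by -0.80 ± 0.06 (adjusted p = 3.17e-07) and by -0.92 ± 0.11 with its second probe. Ptgs2, the inducible cyclooxygenase, read -4.67, -4.46 and -4.46 against -5.22, -5.20 and -5.06, a change of -0.63 ± 0.08 (adjusted p = 9.29e-05). Apold1, an endothelial early response gene, and Depp1, a target of FOXO factors, were lower at both ages: Apold1 changed by -1.18 ± 0.13 at 6 and -1.04 at 3 weeks, and Depp1 by -1.45 ± 0.22 and -0.89. For these last genes the difference between ages was not called (adjusted p = 0.605 and 0.214).

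**Figure D4:**
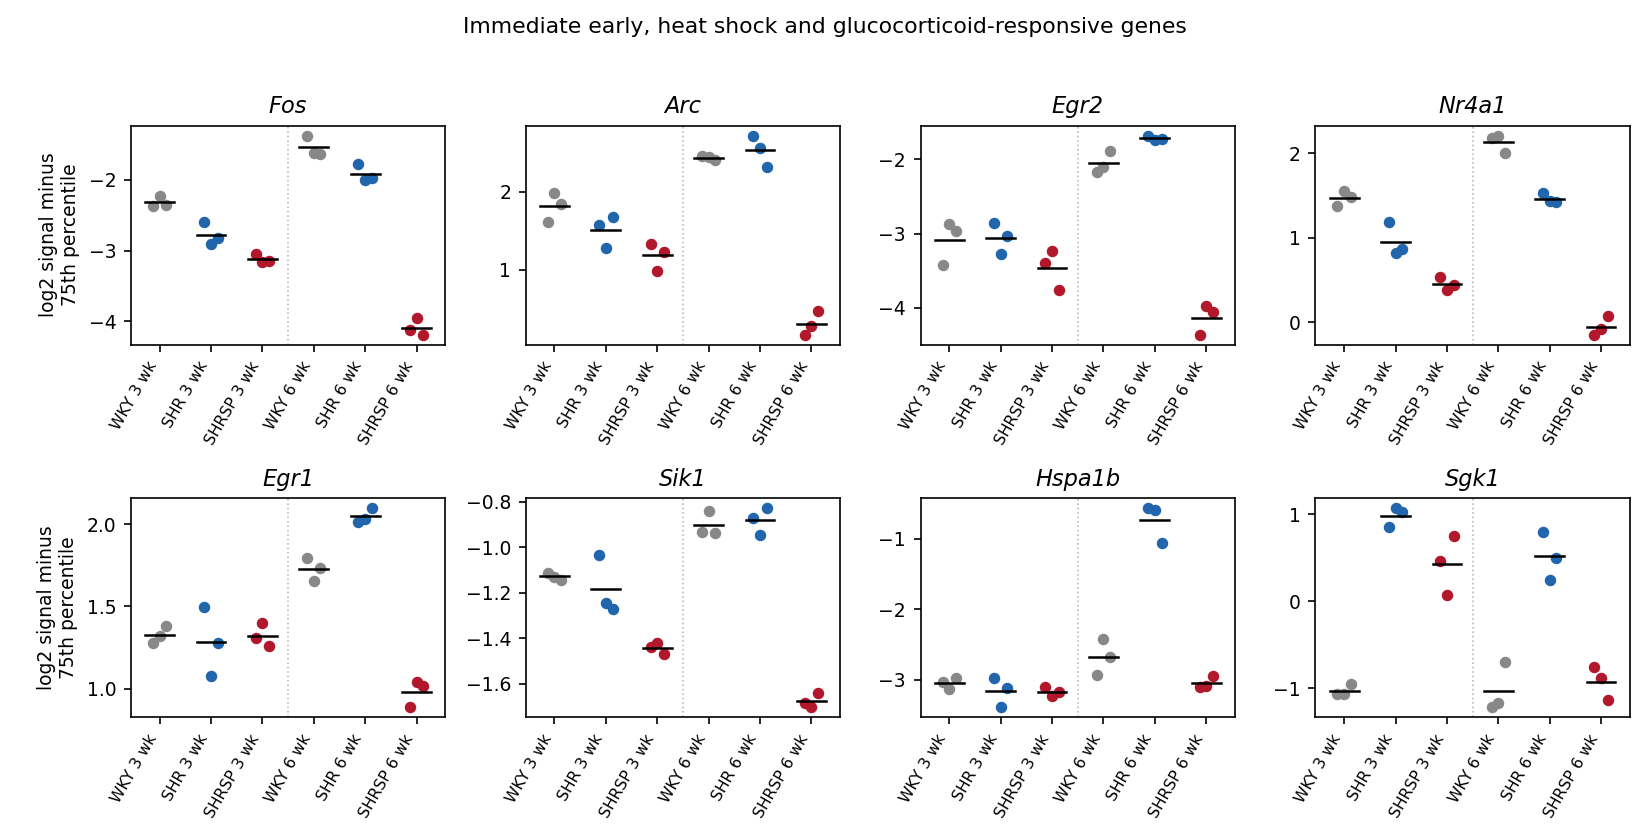
Log2 signal minus the array's 75th percentile (vertical axis) of 8 genes on the 3 arrays of each of 6 groups; points are arrays and bars group means. In the panels of Fos, Arc, Egr2, Nr4a1, Egr1 and Sik1 the 3 arrays labelled SHRSP at 6 weeks lie below those of SHR and WKY at 6 weeks, while for Hspa1b the arrays labelled SHR stand apart, above both.

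Promoters of the list were searched because these genes moved together. RefSeq sequence from 250 bases before to 50 bases after the start was found for 16 of the 24 genes (build GRCr8). Those of Egr2, Egr1 and Dusp1, a phosphatase of MAP kinases, are shown with the matches in capitals.
Egr2 promoter: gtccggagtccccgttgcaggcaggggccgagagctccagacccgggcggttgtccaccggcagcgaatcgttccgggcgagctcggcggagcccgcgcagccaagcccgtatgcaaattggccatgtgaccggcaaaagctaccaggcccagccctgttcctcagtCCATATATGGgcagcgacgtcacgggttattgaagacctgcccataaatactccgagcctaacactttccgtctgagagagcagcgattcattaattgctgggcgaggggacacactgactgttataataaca
Egr1 promoter: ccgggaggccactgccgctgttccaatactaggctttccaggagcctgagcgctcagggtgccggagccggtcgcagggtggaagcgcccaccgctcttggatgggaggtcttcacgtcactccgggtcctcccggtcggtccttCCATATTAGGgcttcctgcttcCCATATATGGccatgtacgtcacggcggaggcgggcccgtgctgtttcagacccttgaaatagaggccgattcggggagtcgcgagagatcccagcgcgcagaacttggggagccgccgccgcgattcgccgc
Dusp1 promoter: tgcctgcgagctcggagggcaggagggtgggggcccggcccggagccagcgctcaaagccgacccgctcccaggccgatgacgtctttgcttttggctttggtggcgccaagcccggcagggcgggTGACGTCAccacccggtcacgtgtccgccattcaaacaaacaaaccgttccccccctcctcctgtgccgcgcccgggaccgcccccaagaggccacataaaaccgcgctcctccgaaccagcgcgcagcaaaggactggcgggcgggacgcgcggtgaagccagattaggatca
The windows are chr20:21054392-21054691 on the minus strand, chr18:26736828-26737127 on the plus strand and chr10:17184603-17184902 on the plus strand. The CArG box, the site of serum response factor, was matched in Egr1 (2 matches) and Egr2, in 2 of the 16 genes, against 1.64% of all 33469 RefSeq promoters of this length. The cAMP response element TGACGTCA, which reads the same on both strands, was matched in Dusp1, Btg2 and Ier2, in 3 of the 16, against 1.83% of all. The CArG pattern also matches on both strands, though the letters of a match need not read the same on both. No match of the elements overlapped. A match is a description of these letters only.

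Of 16 measured genes that glucocorticoids induce 9 were lower and 0 higher, with a median of -0.41, where 21.4% of all genes were lower. With slide as a random block 9 were lower, where 12.1% of all genes were. The mean level of the list at 6 weeks was -0.515 to -0.36 in the arrays labelled SHR, -0.929 to -0.84 in those labelled SHRSP and -0.95 to -0.842 in WKY. Among the groups of 6 weeks the arrays labelled SHR were therefore the group apart. At 3 weeks the list lay at -0.487 to -0.412 in SHR, -0.485 to -0.249 in SHRSP and -0.927 to -0.869 in WKY. Sgk1, a kinase that regulates ion channels, read 0.80, 0.25 and 0.50 against -0.75, -0.88 and -1.14, a change of -1.44 ± 0.18 (adjusted p = 6.85e-05). Both WKY groups lay at -1.03, so for Sgk1 the arrays labelled SHRSP at 6 weeks were near WKY and the arrays labelled SHR above it. Pdk4, which shuts off pyruvate dehydrogenase, was not above background in the arrays labelled SHRSP and at least 2.43-fold lower (adjusted p = 0.000279).

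Ddit4, an inhibitor of mTOR signalling, changed by -0.74 ± 0.11, and by -0.64 ± 0.13 with its second probe. Errfi1, an inhibitor of the EGF receptor, changed by -0.48 ± 0.08. At 3 weeks 6 of the 16 members were higher and 2 lower, where 2.29% of all genes were higher and 2.03% lower, and the difference between ages was called in 9 members, all downward at 6 weeks. Per1, which both glucocorticoids and the clock drive, changed by -0.69 ± 0.11 and was higher by 0.52 on the first slide within SHR at 3 weeks.

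Among heat shock genes, 5 of 14 were lower and 2 higher (median -0.08), where 21.4% of all genes were called each way. Hspa1b, the inducible HSP70, read -0.56, -0.59 and -1.05 against -3.11, -3.08 and -2.94, a change of -2.31 ± 0.14 (adjusted p = 8.80e-08). The 4 groups of WKY and of 3 weeks had means of -3.17 to -2.68, so the arrays labelled SHR at 6 weeks stood above the rest. A second Hspa1b probe was too dim to be kept. It was above background on 0 arrays labelled SHR and 1 labelled SHRSP at 6 weeks, with means of -9.735 and -8.631, so the change rests on 1 probe. Hsph1 changed by -0.30 ± 0.04 and Bag3, a co-chaperone of HSP70, by -0.30 ± 0.05. Hspa8, the constitutive HSC70, rose by 0.20 ± 0.05 (adjusted p = 0.00409) but was not called after quantile normalization (0.07, adjusted p = 0.224).

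Of 20 clock genes 7 were lower and 3 higher, where 21.4% of all genes were called each way, so nothing is read from these counts. Nr1d1, the repressor REV-ERB alpha, read -2.97, -3.03 and -2.88 against -2.29, -2.46 and -2.39 and rose by 0.58 ± 0.07 (adjusted p = 3.42e-05). Nfil3, a repressor of clock output genes, changed by -0.71 ± 0.07, and Cry2 by -0.27 ± 0.05. Time of day at dissection is not given in the sources used here.

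Myelin and oligodendrocyte genes moved the other way. Of 21 measured, 15 were higher in the arrays labelled SHRSP and 1 (Ugt8) was lower, with a median of 0.29, and 11 were higher with slide as a random block. Over all genes 21.4% were called each way, and 10.3% were higher with that block. The changes were small. Ppp1r14a, an inhibitor of myosin phosphatase in these cells, read 1.69, 1.66 and 1.59 against 2.04, 2.04 and 2.10, a rise of 0.41 ± 0.04 (adjusted p = 6.77e-06). Mag, a myelin-associated glycoprotein, rose by 0.44 ± 0.06, and its dimmer second probe by 0.20 ± 0.09 (adjusted p = 0.0713).

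The tetraspanin Tspan2 rose by 0.37 ± 0.05 and Enpp6, a phosphodiesterase of newly formed oligodendrocytes, by 0.37 ± 0.05. At 3 weeks 0 members were higher and 5 lower, with a median of -0.19, where 2.29% of all genes were higher and 2.03% lower. The difference between ages was called upward in 16 of the 21, against 9.7% of all genes. The mean level of the list was 1.07 to 1.14 in the arrays labelled SHR at 6 weeks, 1.29 to 1.41 in those labelled SHRSP and 1.37 to 1.44 in WKY. In whole brain RNA, fewer cells of a type and less RNA per cell cannot be told apart.

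Meningeal and fibroblast genes were higher in 11 of 18 members and lower in 0 (median 0.25), where 21.4% of all genes were called each way. Ptgds, which makes prostaglandin D2 in the leptomeninges and oligodendrocytes, read 6.12, 6.17 and 6.06 against 6.60, 6.62 and 6.59, a rise of 0.49 ± 0.05 (adjusted p = 1.01e-05). Slc13a3, a dicarboxylate transporter, rose by 0.31 ± 0.05, Igf2 by 0.29 ± 0.05 and Crabp2, a retinoic acid binding protein, by 0.43 ± 0.08. The mean level of the list was 0.20 to 0.27 in the arrays labelled SHR and 0.40 to 0.49 in those labelled SHRSP. Choroid plexus and ependymal genes were higher in 5 of 15 and lower in 1, and the count of 5 rested on single arrays. It was 1, 0 and 9 without SHR replicate 1, 2 and 3, and 1, 0 and 3 without SHRSP replicate 1, 2 and 3.

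Antigen presentation genes were higher in 10 of 19 members and lower in 0 (median 0.21), with 7 higher under the random slide block. Over all genes 21.4% were called each way, and 10.3% were higher under that block. Cd74, the invariant chain of class II molecules, read -2.56, -2.61 and -2.46 against -1.85, -1.90 and -2.20 and rose by 0.56 ± 0.13 (adjusted p = 0.00335). The class I gene RT1-A1 rose by 0.24 ± 0.04, and by 0.19 ± 0.06 with its second probe. Tapbp, which loads peptides on class I molecules, rose by 0.31 ± 0.05 and the peptide transporter Tap2 by 0.21 ± 0.04. Of 16 microglial markers 1 was higher and 2 were lower. The part of meningeal tissue, whose markers were also higher, in these values was not tested.

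**Figure D5:**
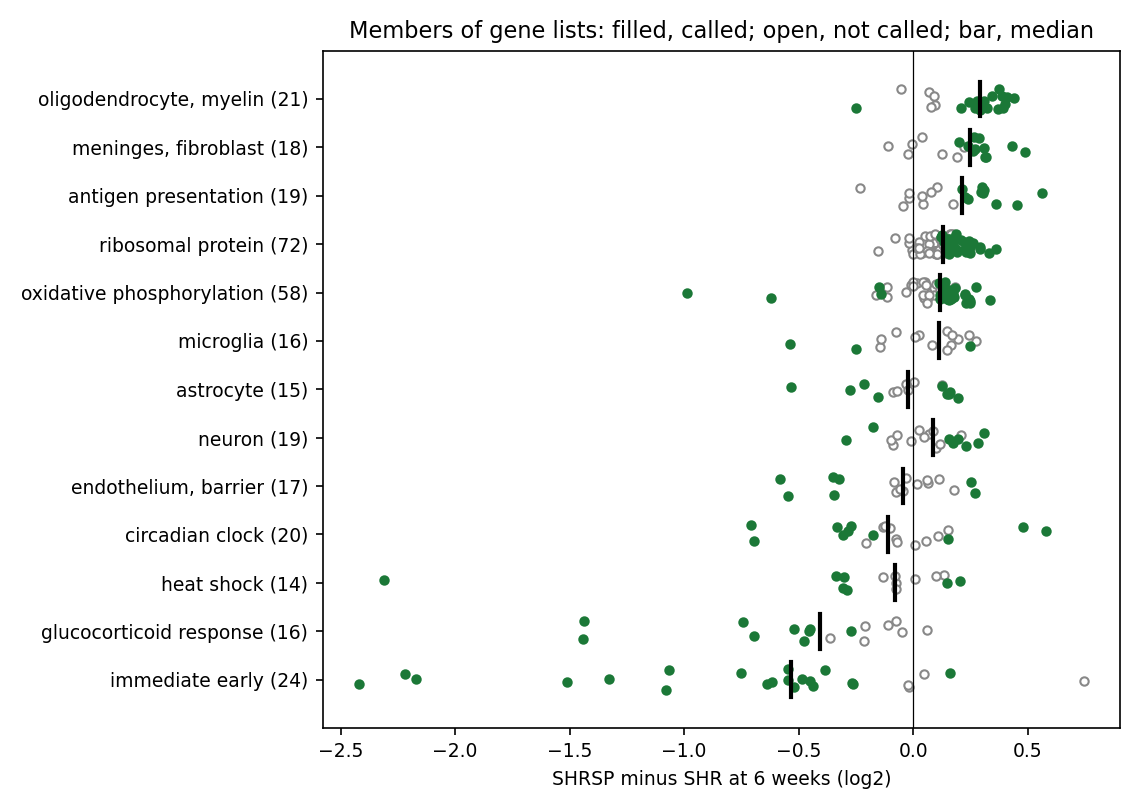
Change at 6 weeks (horizontal, log2) of each measured member of 13 gene lists, with the number of members in brackets; filled points are called, open points are not, and bars are medians. The immediate early list (median -0.53) and the glucocorticoid list (-0.41) lie to the left, and the myelin list (0.29), the meningeal list (0.25) and the antigen presentation list (0.21) to the right.

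Ribosomal protein genes were higher in 32 of 72 members and lower in 0 (median 0.13), where 21.4% of all genes were called each way. The counts were 9 higher and 2 lower after quantile normalization and 10 higher with slide as a random block, where 10.3% of all genes were higher. They were 21, 20, 21 and 17 higher without SHR replicate 1, SHR replicate 3, SHRSP replicate 2 and SHRSP replicate 3. The count therefore depends on the scaling and on single arrays. Rps9 rose by 0.36 ± 0.04. Genes of oxidative phosphorylation were higher in 27 of 58 and lower in 4, and in 10 and 7 after quantile normalization. Atp5pb, a subunit of ATP synthase, rose by 0.28 ± 0.04. Uqcrq, a subunit of complex III, changed by -0.99 ± 0.13 and was higher by 0.69 on the first slide within SHR at 3 weeks.

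Of 24 cholesterol synthesis genes 11 were higher and 4 lower, where 21.4% of all genes were called each way. Tm7sf2, a sterol reductase, rose by 0.57 ± 0.06 and Hsd17b7 by 0.39 ± 0.04, and at 3 weeks they changed by -0.39 and -0.58. Fdft1, squalene synthase, changed by -0.48 ± 0.09 and Stard4, a cholesterol carrier, by -0.20 ± 0.04. Of 19 hypoxia-responsive genes 2 were higher and 4 lower, and the 4 fell to 1 without SHR replicate 1 or 3 or SHRSP replicate 2 or 3, and to 2 without SHR replicate 2. Eno1, a glycolytic enolase, rose by 0.45 ± 0.04, and by 0.71 ± 0.04 with another probe beside it on chromosome 5.

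Of 17 endothelial and barrier genes 2 were higher and 5 lower, about the share of all genes called (42.8%), and nothing is read from these counts. Pecam1, an adhesion molecule of endothelium, read -0.68, -0.84 and -0.81 against -1.09, -1.11 and -1.18, a change of -0.35 ± 0.07 (adjusted p = 0.00137). The efflux pumps Abcg2 and Abcb1a changed by -0.34 ± 0.06 and -0.58 ± 0.11. The lipid transporter Mfsd2a rose by 0.27 ± 0.05. Pecam1, Abcg2 and Mfsd2a were each higher in the arrays labelled SHRSP at 3 weeks, by 0.47, 0.44 and 0.48.

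Neuron markers were higher in 6 of 19 and lower in 2, and 3 were higher without SHR replicate 1. Over all genes 21.4% were called each way. Astrocyte markers were higher in 5 and lower in 4 of 15, and the 5 became 1 to 3 when SHR replicate 1, 2 or 3 or SHRSP replicate 2 or 3 was left out. Of 28 genes of potassium and sodium transport, 4 were higher and 6 lower, the 6 becoming 3 without SHR replicate 1. Kcnj16, an inward rectifier, changed by -0.37 ± 0.06. Kcnma1, the large-conductance calcium-activated channel, changed by -0.87 ± 0.14 with its brightest probe, and its other probes by -0.08 ± 0.08 and 0.04 ± 0.08.

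Of 31 glutamate and GABA receptor genes 5 were higher and 3 lower, where 21.4% of all genes were called each way, so nothing is read from these counts. Grm4, a presynaptic metabotropic receptor of cerebellar granule cells, rose by 0.61 ± 0.09, and by 0.52 ± 0.10 with its second probe. Of 24 catecholamine and serotonin genes 2 were higher and 2 lower. Th, the rate-limiting enzyme of catecholamine synthesis, read 1.45, 1.52 and 1.49 against 1.25, 1.19 and 1.14, a change of -0.29 ± 0.09 (adjusted p = 0.0203), and was not called with slide as a random block (adjusted p = 0.0832), without SHR replicate 2 (0.061) or without SHRSP replicate 3 (0.0599).

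Of 23 hypothalamic neuropeptide genes 6 were higher and 1 lower, where 21.4% of all genes were called each way. Avp, vasopressin, which retains water and constricts vessels, read 1.14, 1.08 and 1.37 against 1.81, 1.80 and 2.08, a rise of 0.70 ± 0.14 (adjusted p = 0.00119). Gal, galanin, rose by 0.41 ± 0.06, and by 0.37 ± 0.05 with its second probe. Pituitary hormone genes varied between arrays of a group. Pomc read -0.70, -1.19 and -1.23 against -0.90, 2.14 and -0.35, and the mean level of the 8 pituitary genes was -4.34 to -2.63 in the arrays labelled SHR and -3.46 to 0.63 in those labelled SHRSP. Of these 8 genes 0 were called by limma (3 at an unadjusted p under 0.05), and their part in the neuropeptide values was not tested.

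For the lists that follow, the share over all genes was 21.4% called each way. Of 21 genes of epoxide and eicosanoid metabolism 8 were higher and 2 lower, with Ephx2, Ptgds and Ptgs2 among them. Of 30 glutathione and Nrf2 genes 12 were higher and 4 lower, and 7 were higher without SHR replicate 2 or SHRSP replicate 2. Of 30 genes of fatty acid oxidation 8 were higher and 3 lower, and 5 were higher without SHR replicate 2. Of 23 genes of the unfolded protein response 5 were higher and 4 lower, and the 4 became 0 without SHR replicate 3. Of 26 interferon-responsive genes 4 were higher and 2 lower, of 21 complement and coagulation genes 4 were higher and 3 lower, and 2 interferon-responsive genes were higher without SHR replicate 3. Mural cell markers were higher in 2 of 12 (Vtn and Anpep) and lower in 1 (Acta2), and pineal and photoreceptor markers were higher in 2 of 11 (Rcvrn and Opn4). Of the sex-linked list 1 gene symbol was measured (Ddx3), but its probe maps to chromosome 13 in the files, so it says nothing of a sex-linked gene.

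The candidate hypertension list held 37 measured genes, of which 7 were higher and 6 lower (median 0.07). Over all genes 21.4% were called each way, and nothing is read from these counts. Agtrap, Ephx2, Nppa, Vegfb and Agtr1b are described above. Among genes of the angiotensin system, Ace, the angiotensin-converting enzyme, read -1.84, -1.56 and -1.45 against -0.80, -0.95 and -1.05. The groups did not overlap, the rise was 0.69 ± 0.08 (adjusted p = 5.57e-05, and 0.00265 with slide as a random block), and its second probe rose by 0.71 ± 0.22. At 3 weeks Ace changed by -0.12 (adjusted p = 0.526), and the difference between ages was called (adjusted p = 0.000329). The probe lies at chr10:95381347-95381406 of rn4.

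Mas1, the receptor of angiotensin-(1-7), rose by 0.26 ± 0.07 but was not called with slide as a random block (adjusted p = 0.0672). The precursor gene Agt read 4.63, 4.57 and 4.53 against 4.47, 4.53 and 4.69, overlapping groups with a change of -0.01 ± 0.06 (adjusted p = 0.912). Agtr1a, the main angiotensin receptor, differed by 0.17 ± 0.07 (adjusted p = 0.084, but 0.00578 after quantile normalization).

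Cyp4a8, a fatty acid hydroxylase that makes a vasoconstrictor, changed by -0.72 ± 0.16 (adjusted p = 0.00317), with a slide difference of 0.61 within SHR at 3 weeks. A second Cyp4a8 probe was too dim to be kept, with means of -7.995 under the SHR label and -8.569 under the SHRSP label. It was above background on 1 array labelled SHR and 0 labelled SHRSP, so the change rests on 1 probe. Of the mineralocorticoid genes, Nr3c2, the receptor, changed by -0.19 ± 0.05 and Hsd11b2, which inactivates glucocorticoids at it, by 0.34 ± 0.09. Stim1, the calcium sensor of the endoplasmic reticulum, rose by 0.21 ± 0.06, and was not called without SHR replicate 1 (adjusted p = 0.0778) or SHRSP replicate 3 (adjusted p = 0.0503). With slide as a random block all 3 lost the call (adjusted p = 0.0775, 0.0844 and 0.086).

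Some of the genes at least 2-fold apart, which were 2.86% of all genes, lay close together. Each stretch below was picked as a run of such genes and ends at its first and last one. Its share is therefore high by construction, and nothing is read from it. On chromosome 10, 9 of 145 tested genes between 11926184 and 15666850 (rn4) were at least 2-fold apart, each within 2 Mb of the next, 3 higher and 6 lower. Of the 9, Zfp597, Prss22, Haghl, Rgs11, Hba-a3 and Rhbdf1 had opposite signs at 3 weeks. Prss22, a serine protease, changed by -1.19 ± 0.10 at 6 and 0.83 at 3 weeks, and Rhbdf1, an inactive rhomboid protease, by 1.05 ± 0.06 and -0.75. On chromosome 1, 7 of 82 tested genes between 78772431 and 81185242 were 2-fold apart, 4 of them reversed at 3 weeks, among them Trappc6a and Ceacam16, a carcinoembryonic antigen relative. Another group of 9 on that chromosome, between 159470928 and 165194999, was lower throughout, differed between slides in all 9 and reversed in 0.

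The chromosomes with the largest shares of genes called at both ages with opposite signs were 18 (29 of 515 tested, 5.63%), 19 (30 of 557, 5.39%) and 15 (28 of 586, 4.78%). Those with the smallest were 7 (10 of 1224, 0.817%) and 12 (5 of 594, 0.842%), leaving out the 12 mitochondrial genes. The shares of all called genes ranged far less, from 37.6% on chromosome 2 to 46.2% on chromosome 20. These shares are descriptions, with no test.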

How the data were processed

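Rat whole-brain RNA was measured on 18 Agilent single-colour arrays, and the scanner files of all 18 were read. The authors extracted the deposited intensity values with Agilent Feature Extraction 10.5.1.1, per the file headers, which corrects the local background and spatial trends within an array. The deposited series table was not used. From the processed intensity, control spots and spots marked as outliers or non-uniform were left out, log2 was taken, the array's 75th percentile subtracted and replicate spots averaged. Probes well above background on all 3 arrays of at least 1 group were kept, 24284 of 30367, and a gene was its brightest kept probe, which gave 21181 genes. Gene symbols came from the files and from RefSeq by accession (17673 probes), symbol (2510) or synonym (700), and 9484 probes kept the file's name.

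One fit over all 18 arrays with 6 group means used limma 3.58.1 in R 4.3.3 (12 residual and 1.95 prior degrees of freedom). It gave SHRSP minus SHR at 6 weeks, the same at 3 weeks, and their difference. The fit was tested on simulated data. The members, the 33 gene lists, the tests and the rule for named genes were chosen with earlier results of these data known. That rule took genes with an established symbol: the 12 largest called each way among those above background on all 6 arrays, up to 8 each way under background in a whole group, up to 4 called members of each list and every measured candidate hypertension gene, the 8 largest called at both ages in each sense, the 8 largest called at 6 weeks alone, and clusters of at least 3 genes 2-fold apart. Dusp1, Btg2, Ier2, Ier3, Jun, Egr3, Atf3, Homer1, Ugt8, Cd3d, Cd8b, Vtn, Anpep, Acta2, Rcvrn, Opn4 and Ddx3 were named after their values were seen, where a short count falls on them. The alternatives were the background correction, the scaling, the filter, the probe rule, the arrays in the fit, slide as a random block, the replicate number as a block, each array left out and, added after seeing the data, the genes that differed between slides left out and the labels of 1 age exchanged. Not every gene taken is named, and some results are not reported here. The p-values measure the spread between replicate arrays, and 3 arrays a group limit the precision.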

Additional observations from a re-analysis of the deposited data

Results flagged for a closer look

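The difference between SHRSP and SHR was itself unlike at the ages in 3839 of 21181 genes, by the limma contrast of the 6-week minus the 3-week change. Some arrays of both labels shared a slide at 3 weeks, and none did at 6 weeks. Slide and age therefore cannot be told apart in this difference. Among the 3839 were 71 genes of the report, leaving out those named after their values were seen, with adjusted p of at most 0.0425. Of the genes left out, Vtn (0.59, adjusted p = 0.00104) and Anpep (0.60, adjusted p = 0.0391) were also called, and the counts below do not hold them. The values below are that difference on the log2 scale, and those of genes under background in a group, or on some of its arrays, are fitted values, not bounds. They hold for the labels as given. If the SHRSP and SHR labels of 1 age had been exchanged, which was not tested, the difference would become the sum of both changes. The signs given next are those for an exchange at 3 weeks, and all of them would turn for one at 6 weeks. Of the 71, 37 would still be called. For an exchange at 3 weeks 35 of these would keep their sign, and Hba-a3 (-1.41) and Hsd17b7 (-0.19) would have the other. The difference would be called for Fos (-2.51), Arc (-2.55) and Hspa1b (-2.32). It would not be called for Vegfb (0.30, adjusted p = 0.254), Defb17 (0.33, adjusted p = 0.752) or Zfp597 (-0.03, adjusted p = 0.853). This alternative was chosen after seeing the data.

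It was 14.25 for Hba-a3, 8.62 for Agtrap, 7.57 for Ephx2, 4.91 for Pira2, 3.86 for Haghl, 3.59 for Myoc and 3.36 for Tnfaip6. It was 2.84 for Lgals7, 2.69 for Lpar6, 2.67 for Cort, 2.64 for Nppa, 2.49 for Ceacam16, 2.18 for Sgca, 2.07 for Zfp14 and 1.80 for Rhbdf1. In the other direction it was -18.86 for Vegfb, -12.90 for Defb17, -5.59 for Zfp597, -4.42 for Zfp296, -4.42 for Rgs11, -3.27 for Zap70, -2.41 for Trappc6a and -2.02 for Prss22. These genes had opposite signs at the ages.

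Flywch1, Or8b8 and Tnfsf8, lower at 6 weeks and not called at 3, differed by -1.55 for Flywch1, -1.95 for Or8b8 and -1.86 for Tnfsf8. Among early, glucocorticoid-induced and heat shock genes the difference was -2.30 for Hspa1b, -2.01 for Egr2, -1.89 for Arc, -1.82 for Fos, -1.10 for Egr1, -1.05 for Pdk4, -1.02 for Ptgs2 and -1.01 for Nr4a1. It was smaller in size, at -0.88 for Sgk1, -0.60 for Per1, -0.54 for Sik1, -0.43 for Bag3 and -0.29 for Hsph1.

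Myelin and meningeal genes differed upward, by 0.84 for Tspan2, 0.66 for Ptgds, 0.64 for Ppp1r14a, 0.60 for Crabp2, 0.56 for Enpp6, 0.52 for Mag, 0.47 for Slc13a3 and 0.41 for Igf2. Antigen presentation and neuropeptide genes did too, by 0.75 for Avp, 0.73 for Cd74, 0.58 for Gal, 0.31 for Tapbp and 0.27 for RT1-A1.

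Of the metabolic genes the difference was 0.97 for Hsd17b7, 0.96 for Tm7sf2, 0.71 for Eno1, 0.58 for Rps9 and 0.43 for Atp5pb, and downward -0.78 for Uqcrq and -0.28 for Stard4. Of the clock and barrier genes it was 0.43 for Nr1d1, -0.29 for Cry2, -0.81 for Pecam1, -0.79 for Abcg2 and -0.59 for Abcb1a. Of channels, receptors and candidate genes it was 0.80 for Ace, 0.58 for Grm4, 0.53 for Stim1 and 0.34 for Agtr1a, and downward -0.66 for Kcnma1, -0.47 for Kcnj16 and -0.29 for Nr3c2.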

How the results depend on the processing

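Slide and label cannot be told apart here, and 3 arrays a group limit the precision. With slide as a random block 4752 genes were called at 6 weeks and 1954 for the difference between ages, against 9062 and 3839. The count at least 2-fold apart, 605, was 295 with the normexp correction (18 higher, 277 lower). It was 181 without the genes that differed between the SHR arrays of 3 weeks on different slides, an alternative chosen after seeing the data. With the SHRSP and SHR labels of 1 age exchanged, also chosen then, 6541 genes were called for the difference between ages. The causes were not tested, apart from the fewer genes tested without those that differed between these SHR arrays. Scaling to each array's median gave 6175 higher and 3719 lower at 6 weeks, and 68.3% higher for the difference between ages against 53.5%. Leaving out 1 array gave 7208 to 8453 called, 595 to 638 at least 2-fold apart and 2767 to 3863 for the difference between ages. The replicate numbers did not pair the arrays: same-numbered arrays had correlations of their deviations of -0.055, -0.131 and -0.087, and the replicate block gave 8323, 602 and 3064. Zfp14 turned sign with the mean of its probes (-0.007). Agt, not called, turned to 0.039 with the median scaling and 0.069 with normexp, and ranged from -0.073 to 0.04 with 1 array left out, above 0 without SHR replicate 1, SHRSP replicate 1 or SHRSP replicate 2. The settings were compared for 85 called genes of the report, leaving out the genes named after their values were seen. Of the 85, Flywch1, Hspa8, Mas1, Stim1, Hsd11b2, Nr3c2 and Th lost the call under at least 1 setting, by limma. Zfp14 lost it with the mean of its probes (adjusted p = 0.897). The rest of the 85 kept call and direction in every setting in which they were tested. Of the genes left out, Anpep was not called with slide as a random block (adjusted p = 0.204).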
